A study of Danio rerio with 8 samples.

Results

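Genes known from the red blood cell membrane (slc4a1a, rhag, sptb, epb41b and ank1a), and nt5c2l1 beside them, were followed in tail muscle of runx2b-/- and wild type zebrafish. These 6 were taken by gene symbol, all were found among the 25279 genes of the count table, and all were abundant enough to be tested. The tissue was tail muscle that still contained its intermuscular bones, the thin bones that lie between muscle segments in teleosts. The tested animals were runx2b-/- and the controls were wild type at the runx2b locus. Both groups were 60 days post fertilization and both carried the sp7/eGFP transgene, with 3 bulk RNA libraries each. The labels give neither the runx2b allele nor the sex, and they do not say whether a library came from 1 fish or a pool, or whether replicate libraries stem from different animals. The p-values therefore measure the spread between these libraries, which may be technical.

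The red blood cell keeps its shape through a net of spectrin under the plasma membrane. Ankyrin ties spectrin to the anion exchanger band 3, protein 4.1 strengthens the junctions of spectrin with actin, and the Rh-associated glycoprotein sits in the same membrane complexes in mammals. Fish red blood cells stay nucleated, and zebrafish mutants in slc4a1a, sptb and epb41b are anemic. Several of these protein families also serve muscle: in mammals, short products of the ankyrin 1 gene anchor the sarcoplasmic reticulum. nt5c2l1 belongs by name to a family of cytosolic nucleotidases and is not a membrane skeleton gene. The group is therefore best read as genes named for the red blood cell membrane plus 1 enzyme. The ank1a model counted here is short, with 7 exon blocks and 1968 bases. Whether its counts came from red blood cells or from muscle was not tested. Bulk RNA does not tell apart a different number of cells of a type and a different amount of RNA per cell.

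Library totals were between 17280098 and 20482003 counts. Levels are given as CPM, counts scaled to the TMM-adjusted library size, and 3 counts were worth 0.134 to 0.181 CPM. runx2b itself had 4, 2 and 6 counts in the runx2b-/- libraries and 2, 2 and 6 counts in the wild type libraries, too few to check the genotype labels. Muscle transcripts dominated, and the summed level of 6 muscle markers ran from 233935 to 391531 CPM in the runx2b-/- libraries and from 282785 to 418213 CPM in the wild type libraries, so the groups overlapped.

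Of the 6 genes, slc4a1a, sptb, epb41b and nt5c2l1 rose in runx2b-/- tail muscle (4 of 6, edgeR's quasi-likelihood test with Benjamini-Hochberg adjustment over 14107 genes, adjusted p under 0.05). Over all tested genes 1.76% were called higher and 1.62% lower in the mutant. The median log2 fold change of the 6 genes was 0.81, against -0.009 over all tested genes. For 5 of the 6, every runx2b-/- library lay above every wild type library, a separation seen in 12.8% of all tested genes (a further 11.7% separated in the other direction). An unadjusted p under 0.05 was reached by 5 of the 6, against 19.4% of all tested genes. The 6 genes were chosen with earlier results of these data known, so these shares describe them and do not test them as a set. ank1a alone had a lower mean in the mutant, and neither it nor rhag passed the test.

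**Figure D1:**
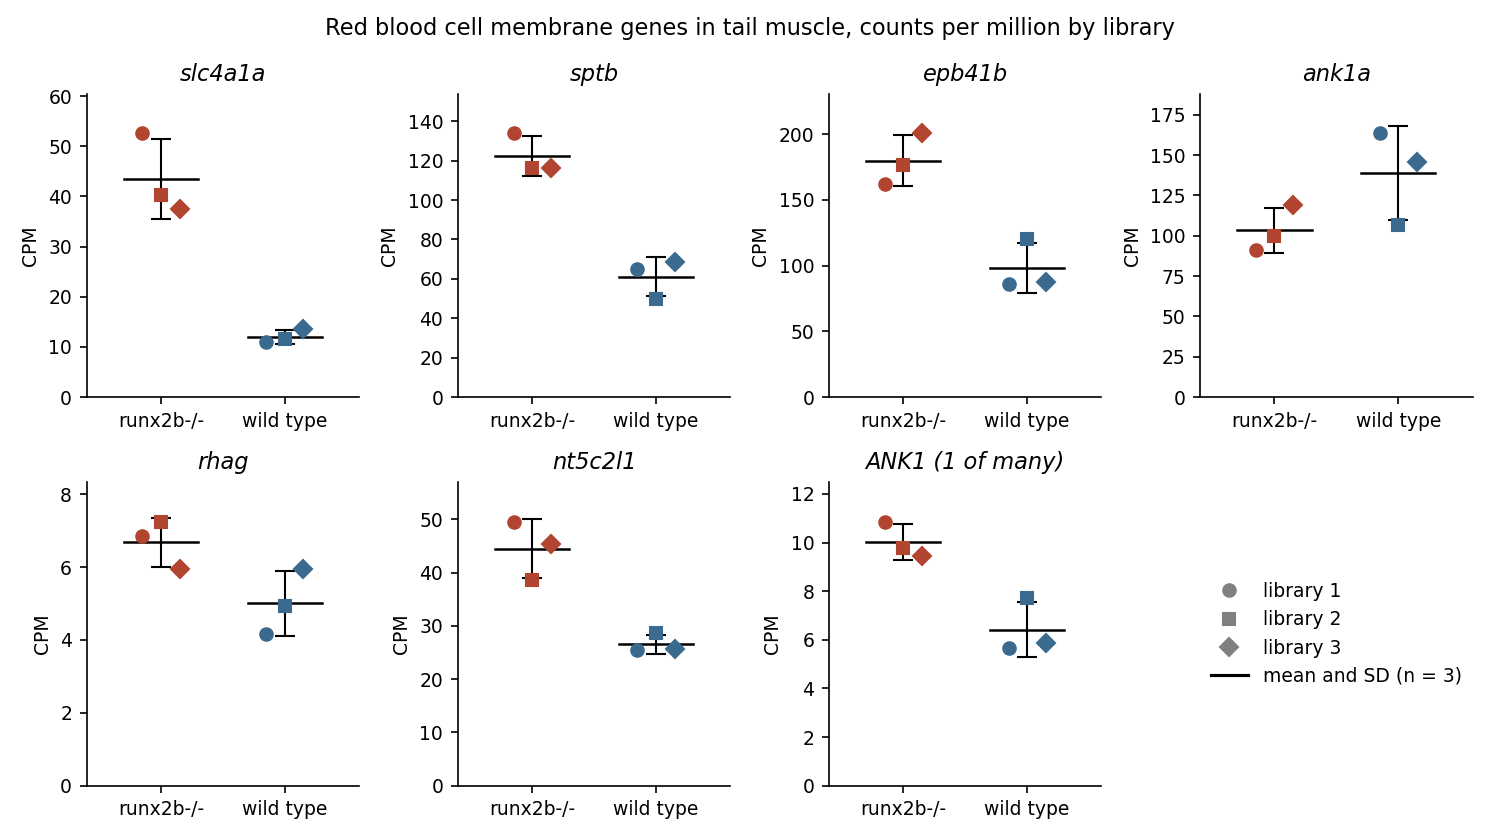
CPM (y axis, from 0) of the 6 genes and of ANK1 (1 of many), the gene model that overlaps ank1a, in 3 runx2b-/- and 3 wild type libraries; symbols mark libraries, lines the mean and bars the SD. slc4a1a has the largest ratio of the runx2b-/- mean to the wild type mean, 3.61. Its libraries had 37.5 to 52.6 CPM in runx2b-/- and 10.9 to 13.6 CPM in wild type. ank1a is the only panel of the 7 in which the groups overlap.

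slc4a1a (chromosome 3, 19915692 to 19944785, minus strand, 23 exon blocks) encodes band 3, the chloride and bicarbonate exchanger that also holds the membrane to the skeleton. It had 52.6, 40.3 and 37.5 CPM in runx2b-/- libraries 1 to 3 and 10.9, 11.6 and 13.6 CPM in wild type libraries 1 to 3. The lowest mutant library was well above the highest wild type library, and mutant library 1 was the highest of all. The mean was 43.5 ± 8.05 CPM in runx2b-/- and 12.0 ± 1.42 CPM in wild type (SD, n = 3 each), a log2 fold change of 1.85 (SE 0.18, edgeR adjusted p = 0.000144). It ranked 21 among all tested genes by p-value.

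rhag (chromosome 20, 14118833 to 14158103, minus strand, 10 exon blocks) encodes the Rh-associated glycoprotein, an ammonia transport protein of the membrane. It was the least abundant of the 6, with 147, 120 and 109 counts in the runx2b-/- libraries and 93, 105 and 104 counts in the wild type libraries. Its levels were 6.85, 7.25 and 5.95 CPM in runx2b-/- and 4.15, 4.93 and 5.94 CPM in wild type. Mutant library 3 and wild type library 3 were nearly equal, and the groups almost touched. The log2 fold change was 0.42 (SE 0.20, edgeR adjusted p = 0.264), so it did not pass the test.

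sptb (chromosome 17, 38619132 to 38651437, plus strand, 37 exon blocks) encodes the beta chain of red blood cell spectrin. It had 134, 116 and 116 CPM in the runx2b-/- libraries and 65.3, 49.8 and 68.4 CPM in the wild type libraries. The groups did not overlap, and wild type library 2 was the lowest. The mean was 122 ± 10.2 CPM in runx2b-/- and 61.2 ± 9.97 CPM in wild type (SD, n = 3 each), a log2 fold change of 1.00 (SE 0.17, edgeR adjusted p = 0.00834).

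epb41b (chromosome 16, 26576173 to 26614727, plus strand, 28 exon blocks) encodes a protein 4.1. It had 162, 176 and 201 CPM in the runx2b-/- libraries and 86.3, 120 and 87.6 CPM in the wild type libraries. The groups were separate, and wild type library 2 came nearest to the mutant libraries. The mean was 180 ± 19.4 CPM in runx2b-/- and 97.9 ± 19.0 CPM in wild type (SD, n = 3 each), a log2 fold change of 0.88 (SE 0.18, edgeR adjusted p = 0.0186).

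ank1a (chromosome 5, 68129839 to 68157061, minus strand) carries the name of red blood cell ankyrin. It had 91.5, 99.6 and 119 CPM in the runx2b-/- libraries and 164, 107 and 146 CPM in the wild type libraries. Wild type library 2 fell inside the mutant range, and the other wild type libraries lay above it. The mean was 103 ± 14.05 CPM in runx2b-/- and 139 ± 29.0 CPM in wild type (SD, n = 3 each), a log2 fold change of -0.43 (SE 0.19, edgeR adjusted p = 0.234).

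The ank1a model of the table has 7 exon blocks with 1968 bases in all. A second model on the same strand, named ANK1 (1 of many), runs from 68156722 to 68270435, upstream of ank1a, has 5376 bases and shares 261 exon bases with it. This neighbour was looked up because of the overlap, after the values of ank1a were seen. It had 10.9, 9.79 and 9.44 CPM in the runx2b-/- libraries and 5.67, 7.70 and 5.88 CPM in the wild type libraries, with all mutant libraries above all wild type libraries. Its log2 fold change was 0.64 (SE 0.18, edgeR adjusted p = 0.0736), so it was not called. ANK1 (1 of many) made up 10.6%, 8.95% and 7.36% of the CPM of both models in the runx2b-/- libraries and 3.35%, 6.72% and 3.88% in the wild type libraries. How reads in the shared bases were counted is not given in the sources used here, so the split between the models is uncertain; with both summed as 1 gene the log2 fold change was -0.36 (SE 0.18, edgeR adjusted p = 0.299).

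nt5c2l1 (chromosome 10, 17502924 to 17561599, minus strand, 19 exon blocks) had 49.6, 38.6 and 45.3 CPM in the runx2b-/- libraries and 25.5, 28.6 and 25.6 CPM in the wild type libraries. The groups did not overlap, and mutant library 2 was the nearest to wild type. The mean was 44.5 ± 5.57 CPM in runx2b-/- and 26.6 ± 1.79 CPM in wild type (SD, n = 3 each), a log2 fold change of 0.74 (SE 0.16, edgeR adjusted p = 0.0243). Its model shares 71 exon bases with the clone-named gene BX927385.1, which had 1 to 5 counts per library; the other models that its span touches share no exon base with it. The models of slc4a1a, epb41b and rhag overlapped no other model of the table, and that of sptb shared no exon base with another.

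Levels of different genes were compared as CPM per kilobase of the table's model. In runx2b-/- tail muscle the order was ank1a (52.5), epb41b (32.6), nt5c2l1 (16.2), sptb (16.0), slc4a1a (10.3) and rhag (1.81 CPM per kilobase). The libraries of nt5c2l1 (14.003 to 18.0) and sptb (15.2 to 17.5 CPM per kilobase) overlapped there, and no other neighbours in that order did. In wild type the order was the same, at 70.5 for ank1a, 17.8 for epb41b, 9.65 for nt5c2l1, 8.01 for sptb, 2.87 for slc4a1a and 1.35 CPM per kilobase for rhag, and no neighbours overlapped. The adult beta globin gene hbba1 stood at 731 CPM per kilobase in runx2b-/- and 559 in wild type.

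Whether the 6 genes shifted together was examined pair by pair. For each of the 15 pairs, the log2 ratio of the members was compared between genotypes with a two-sided exact permutation test over the 6 libraries, whose smallest possible p is 0.1 (0.15 after Benjamini-Hochberg adjustment over the 15 pairs). The ratio separated the genotypes fully in 10 pairs. These were all 5 pairs with slc4a1a, all 5 pairs with ank1a (the pair of slc4a1a and ank1a is in both), and the pair of sptb and rhag. The pairs share genes, so the 15 ratios are not independent, and the share over pairs of other genes was not computed. The log2 ratio of slc4a1a to sptb averaged -1.50 ± 0.144 in runx2b-/- and -2.34 ± 0.234 in wild type (SD, n = 3 each; exact permutation p = 0.1). The log2 ratio of slc4a1a to rhag averaged 2.69 ± 0.235 in runx2b-/- and 1.27 ± 0.107 in wild type (SD, n = 3 each; exact permutation p = 0.1). Among sptb, epb41b and nt5c2l1 no pair separated the genotypes: the log2 ratio of sptb to epb41b averaged -0.56 in runx2b-/- and -0.68 in wild type (exact permutation p = 0.8), and that of epb41b to nt5c2l1 averaged 2.02 in runx2b-/- and 1.87 in wild type (exact permutation p = 0.4).

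Globins make up most of the protein of a red blood cell, and their summed RNA served as a yardstick within each library. The summed level of the 9 globin genes was 1284, 1328 and 1513 CPM in the runx2b-/- libraries and 1075, 1212 and 1042 CPM in the wild type libraries. These 9 were the ones found among 18 listed symbols, and hbba1 held 75.8% of the sum. The sum was higher in every runx2b-/- library than in every wild type library. The share of all tested genes whose ratio to it separates the groups was not computed. Relative to this sum, slc4a1a stood at log2 ratios of -4.61, -5.04 and -5.34 in runx2b-/- and -6.62, -6.71 and -6.26 in wild type, a difference of 1.53. The groups were separate, and wild type library 3 came nearest to the mutant. The differences were 0.70 for sptb, 0.58 for epb41b and 0.43 for nt5c2l1, each with separate groups. For ank1a the difference was -0.72, also with separate groups, although its CPM values overlapped. All 5 had an exact permutation p of 0.1 (two-sided, the smallest 3 against 3 libraries can give; adjusted p = 0.12 over the 6 relations). rhag differed by 0.12 with overlapping groups (exact permutation p = 0.9), so a difference in its ratio to globin RNA was not detectable with these libraries.

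**Figure D2:**
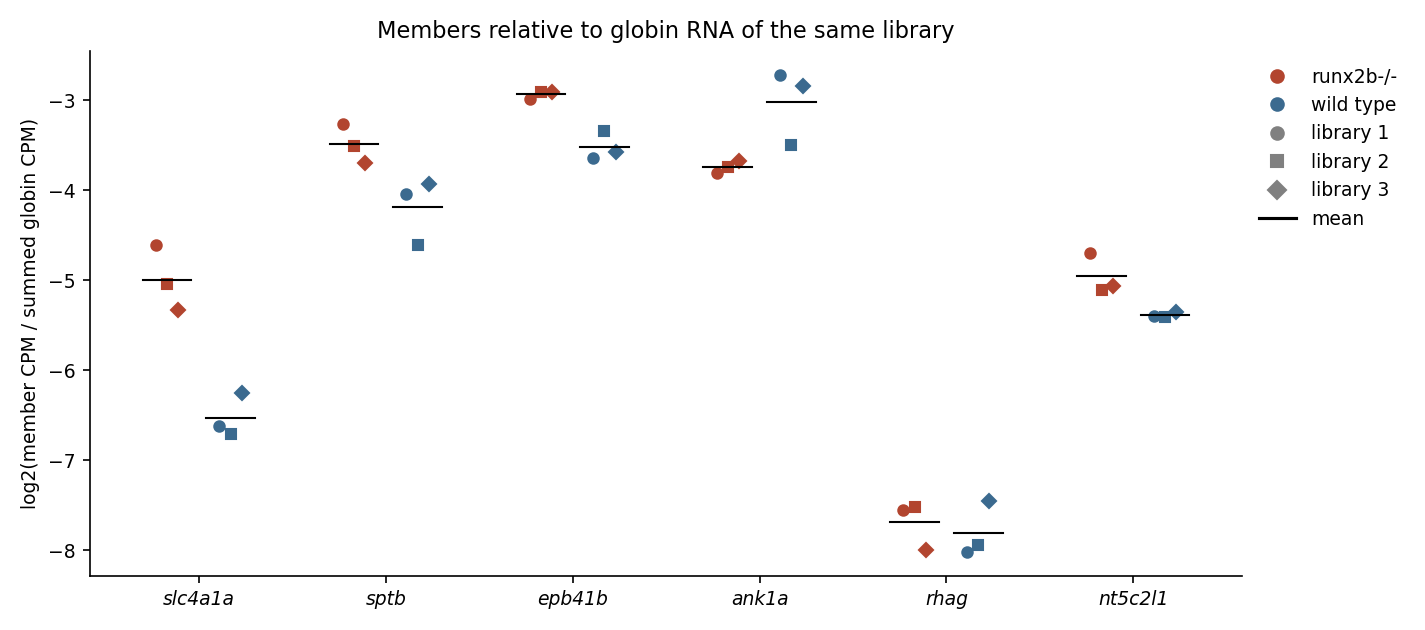
Log2 ratio of each gene's CPM to the summed CPM of 9 globin genes (y axis) for the 3 runx2b-/- and 3 wild type libraries; symbols mark libraries and lines the means. The ratios of slc4a1a, sptb, epb41b and nt5c2l1 lie higher in runx2b-/-, those of ank1a lower, and those of rhag overlap.

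Other genes of the red blood cell are given for comparison. Over all tested genes 1.76% were called higher and 1.62% lower. Among 4 tested globin genes 1 rose, the minor adult alpha globin gene hbaa2, at 7.30 ± 0.200 CPM in runx2b-/- and 3.43 ± 1.39 CPM in wild type (SD, n = 3 each; log2 fold change 1.08, edgeR adjusted p = 0.0409). hbba1 stood at 1067 ± 76.7 CPM in runx2b-/- and 816 ± 48.7 CPM in wild type (SD, n = 3 each; log2 fold change 0.39, edgeR adjusted p = 0.178), and hbaa1 at 274 and 272 CPM. Of 18 listed globin symbols 9 were found, and the 5 embryonic genes among these 9 had at most 3 counts in any library. The median log2 fold change of the tested globins was 0.51, and all 4 were positive, with hbaa1 at 0.01. An unadjusted p under 0.05 in edgeR was reached by 3 of the 4, against 19.4% of all tested genes. In 3 of the 4 all mutant libraries lay above all wild type libraries, against 12.8% of all tested genes. Among these was hbba2, at 0.64 (SE 0.24, edgeR adjusted p = 0.165). The call of hbaa2 ended when mutant library 1, 2 or 3 or wild type library 2 was left out (edgeR adjusted p up to 0.174), and 2 globins were called without wild type library 1. limma voom called 0 globins and DESeq2 called 1.

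Of 12 tested heme and iron genes 3 rose and none fell, against 1.76% and 1.62% of all tested genes. The list went both ways, with 6 genes positive, 6 negative and a median log2 fold change of -0.01. An unadjusted p under 0.05 in edgeR was reached by 6 of the 12, against 19.4% of all tested genes. Of these 6, hmbsa (-0.75, SE 0.28, edgeR adjusted p = 0.167) and abcb10 (-0.83, SE 0.34, adjusted p = 0.205) were lower and not called. The transferrin receptor gene tfr1a (0.74, SE 0.25, edgeR adjusted p = 0.138) was higher and not called. All mutant libraries lay above all wild type libraries in 4 of the 12, and in 1 the reverse. Over all tested genes these shares were 12.8% and 11.7%. alas2, for the first enzyme of heme synthesis in red blood cells, had 39.0, 40.8 and 41.0 CPM in runx2b-/- and 22.9, 23.6 and 14.2 CPM in wild type, a log2 fold change of 0.99 (SE 0.19, edgeR adjusted p = 0.0167). fech, for the enzyme that puts iron into protoporphyrin to form heme, rose by 1.36 (SE 0.34, edgeR adjusted p = 0.0499). The biliverdin reductase gene blvrb rose by 0.70 (SE 0.17, edgeR adjusted p = 0.0484). No gene of this list was called when mutant library 1, 2 or 3 was left out, and alas2 then reached an adjusted p of up to 0.0903. The calls of fech (up to 0.245) and blvrb (up to 0.181) also ended when wild type library 2 or 3 was left out, whereas leaving out wild type library 1 gave 4 higher genes. Without wild type library 3 the list had 1 higher and 1 lower gene, without wild type library 2 it had 1 higher gene, and limma voom called 1 higher gene with all libraries. None of 13 tested erythroid regulator and enzyme genes was called by edgeR, DESeq2 or limma voom (0 by each). Of the 13, 3 had an unadjusted p under 0.05 in edgeR, against 19.4% of all tested genes. All mutant libraries lay above all wild type libraries in 5 of the 13, and in 0 the reverse. Over all tested genes these shares were 12.8% and 11.7%. The median log2 fold change of the list was 0.34. The most abundant genes of the list were the hexokinase gene hk1 at -0.22 (SE 0.18) and the peroxiredoxin gene prdx2 at -0.07 (SE 0.14). The log2 fold change was positive in 10 of the 13, and the 3 with an unadjusted p under 0.05 were the carbonic anhydrase gene cahz (0.59, SE 0.18, edgeR adjusted p = 0.0997), the erythropoietin receptor gene epor (0.86, SE 0.28, adjusted p = 0.115) and bpgm, for the enzyme of 2,3-bisphosphoglycerate (0.36, SE 0.16, adjusted p = 0.242).

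Among 17 tested genes of a wider list for the red blood cell membrane, 1 rose and none fell, against 1.76% and 1.62% of all tested genes. The median log2 fold change of the list was 0.11. The rise was in piezo1, a stretch-activated cation channel gene that vessels also express, at 12.5 ± 1.13 CPM in runx2b-/- and 7.71 ± 0.950 CPM in wild type (SD, n = 3 each; log2 fold change 0.70, SE 0.17, edgeR adjusted p = 0.0443). That call was kept only without wild type library 3, and ended with each other library left out (adjusted p up to 0.193); limma voom called 0 genes of this list. In this list 5 of the 17 had all mutant libraries above all wild type libraries, and 2 of the 17 the reverse, against 12.8% and 11.7% of all tested genes.

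Genes of the same protein families that serve other tissues were set beside the 6 genes. Of 15 tested, 1 rose and none fell, against 1.76% and 1.62% of all tested genes, with a median log2 fold change of 0.26. In 2 of the 15 all mutant libraries lay above all wild type libraries, and in 0 the reverse. Over all tested genes these shares were 12.8% and 11.7%. The rise was in nt5c2b, a relative of nt5c2l1, at 33.3 ± 6.26 CPM in runx2b-/- and 15.5 ± 0.618 CPM in wild type (SD, n = 3 each; log2 fold change 1.102 with SE 0.17, edgeR adjusted p = 0.00527). nt5c2b stayed called with each single library left out (adjusted p at most 0.0391). The third gene of that family, nt5c2a, stood at 0.17 (SE 0.17). The spectrin gene sptbn1, which most tissues express, stood at 0.41 (SE 0.17, adjusted p = 0.206), and the ankyrin gene ank2b at 0.31 (SE 0.20). Of the wider red blood cell membrane list, epb41a, the paralog of epb41b, was near the detection limit. It had 5 to 11 counts per library in runx2b-/- and 11 to 14 in wild type. ank1b, also of that membrane list, had at most 3 counts in any library. The anion exchanger genes slc4a2a (0.41, SE 0.31) and slc4a2b (-0.23, SE 0.34) were not called. Whether a member differed from its relatives was not tested.

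**Figure D3:**
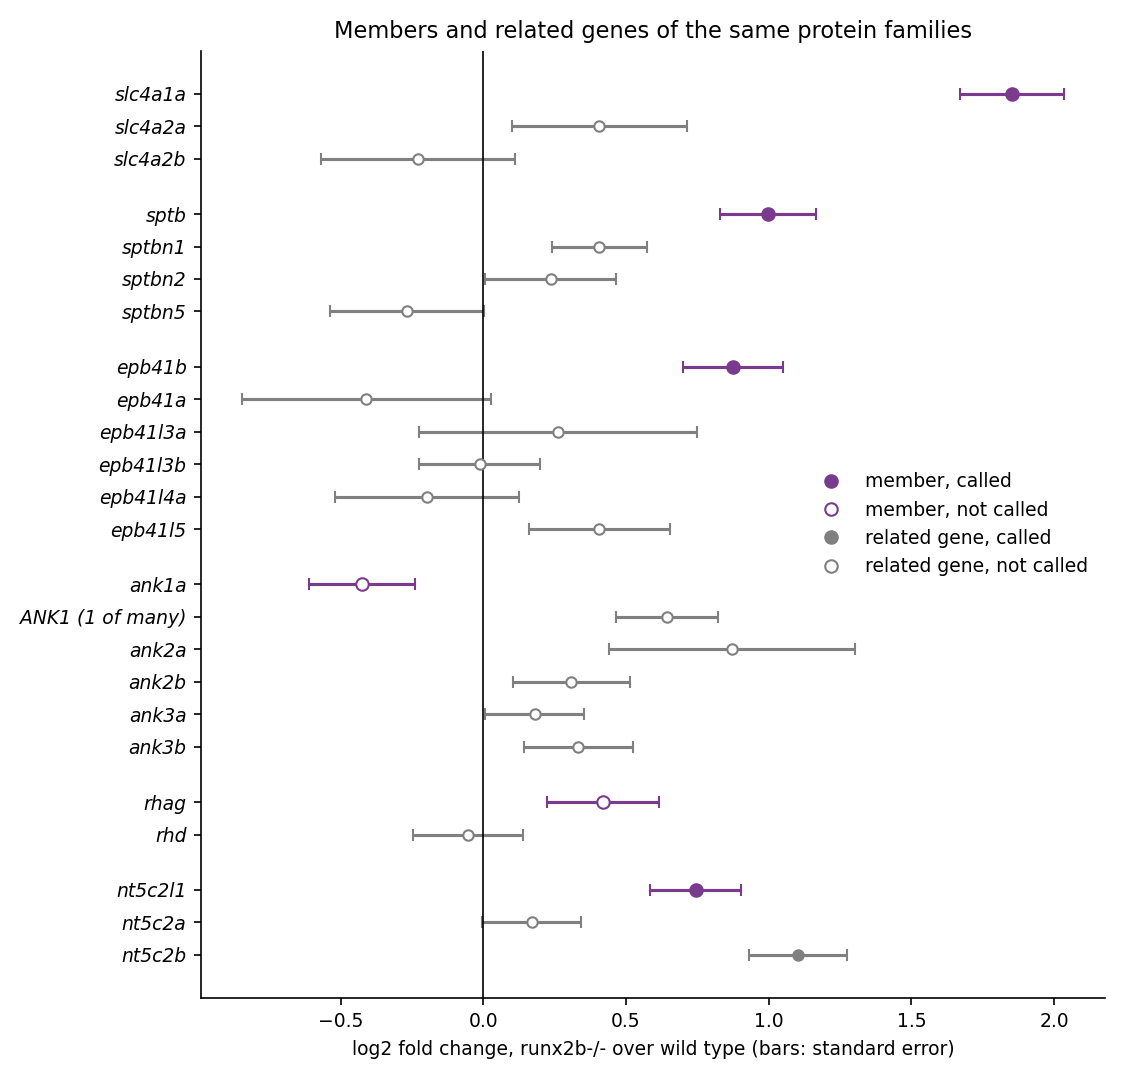
Log2 fold change of runx2b-/- over wild type (x axis; bars are the standard error) for the 6 genes (purple) and related genes (grey), grouped by protein family; filled points have an edgeR adjusted p under 0.05. slc4a1a at 1.85, sptb at 1.00, epb41b at 0.88, nt5c2l1 at 0.74 and the related nt5c2b at 1.102 are the filled points, and ank1a is the only member left of 0.

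Markers of other cell types that tail muscle could hold were set beside these values. The summed level of 8 blood vessel endothelium markers was 102 to 122 CPM in runx2b-/- and 76.1 to 87.7 CPM in wild type, with no overlap. Of the 8, 5 were separate and higher in the mutant (12.8% of all tested genes were), and 1 was called higher (1.76% of all), the cadherin gene cdh5 (log2 fold change 0.71, SE 0.16, edgeR adjusted p = 0.0336). That call ended when mutant library 1, 2 or 3 or wild type library 2 was left out (adjusted p up to 0.171), and 3 of these markers were called without wild type library 3. Of 8 tested leukocyte markers only the lysozyme gene lyz was called lower (1.62% of all tested genes were). It had 1, 0 and 1 counts in runx2b-/- and 23, 47 and 15 counts in wild type. Log2 fold changes were negative in 7 of the 8, with a median of -0.21. Of the 8 markers, 2 were called lower without wild type library 1. In that fit 670 of 14528 tested genes were called in either direction, 50% of them higher. The summed level of the 9 markers was 109 to 123 CPM in runx2b-/- and 107 to 161 CPM in wild type. Of 7 thrombocyte markers 2 had an unadjusted p under 0.05 in edgeR, against 19.4% of all tested genes. None of the 7 markers was called by edgeR, DESeq2 or limma voom, and 1 was called by edgeR without wild type library 3. Their sum was 11.6 to 11.8 CPM in runx2b-/- and 8.84 to 11.2 CPM in wild type, with no overlap. Without thbs1b, the most abundant of them, the sum was 5.14 to 6.27 CPM in runx2b-/- and 5.36 to 6.51 CPM in wild type, and the groups overlapped. The markers went both ways: thbs1b and gp1bb stood at 0.64 (SE 0.20) and 0.34 (SE 0.34), itga2b and mpl at -1.05 (SE 0.42) and -0.96 (SE 0.55), and the 2 with an unadjusted p under 0.05 were thbs1b and itga2b. No marker of these lists was at 0 in all libraries. The part of these cells in the levels of the 6 genes was not tested. None of the 6 muscle markers was called by edgeR, DESeq2 or limma voom, and 0 had an unadjusted p under 0.05; the most abundant, myhc4 and tnnt3b, stood at 0.03 (SE 0.30) and -0.04 (SE 0.19).

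The genotype difference of the 6 genes was checked with each library left out. slc4a1a was called in all 6 fits, with a log2 fold change of 1.69 to 1.96 and an edgeR adjusted p of at most 0.00271. sptb lost its call without mutant library 1 (adjusted p = 0.0608) or wild type library 2 (0.0569), with a log2 fold change of 0.86 to 1.09 over the 6 fits. epb41b lost its call without mutant library 1 (0.0608), 2 (0.0752) or 3 (0.111), with a log2 fold change of 0.79 to 1.03. nt5c2l1 lost its call without mutant library 1 (0.137), 2 (0.0537) or 3 (0.119) or wild type library 2 (0.0847), with a log2 fold change of 0.66 to 0.84. ank1a (-0.60 to -0.30) and rhag (0.29 to 0.56) were called in none of the fits.

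The share of all tested genes called higher also moved in these fits. Without mutant library 1, slc4a1a alone of the 6 was called higher, against 0.36% of tested genes. Without mutant library 2 (0.492%), mutant library 3 (0.338%) or wild type library 2 (0.406%), 2 of the 6 were. Without wild type library 1 (2.31%) or wild type library 3 (3.85%), 4 of the 6 were. nt5c2l1 also lost its call with library size only (adjusted p = 0.101) and with the replicate number as a block (0.0557), which left 3 of the 6 against 1.21% and 1.42% of all genes called higher.

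**Figure D4:**
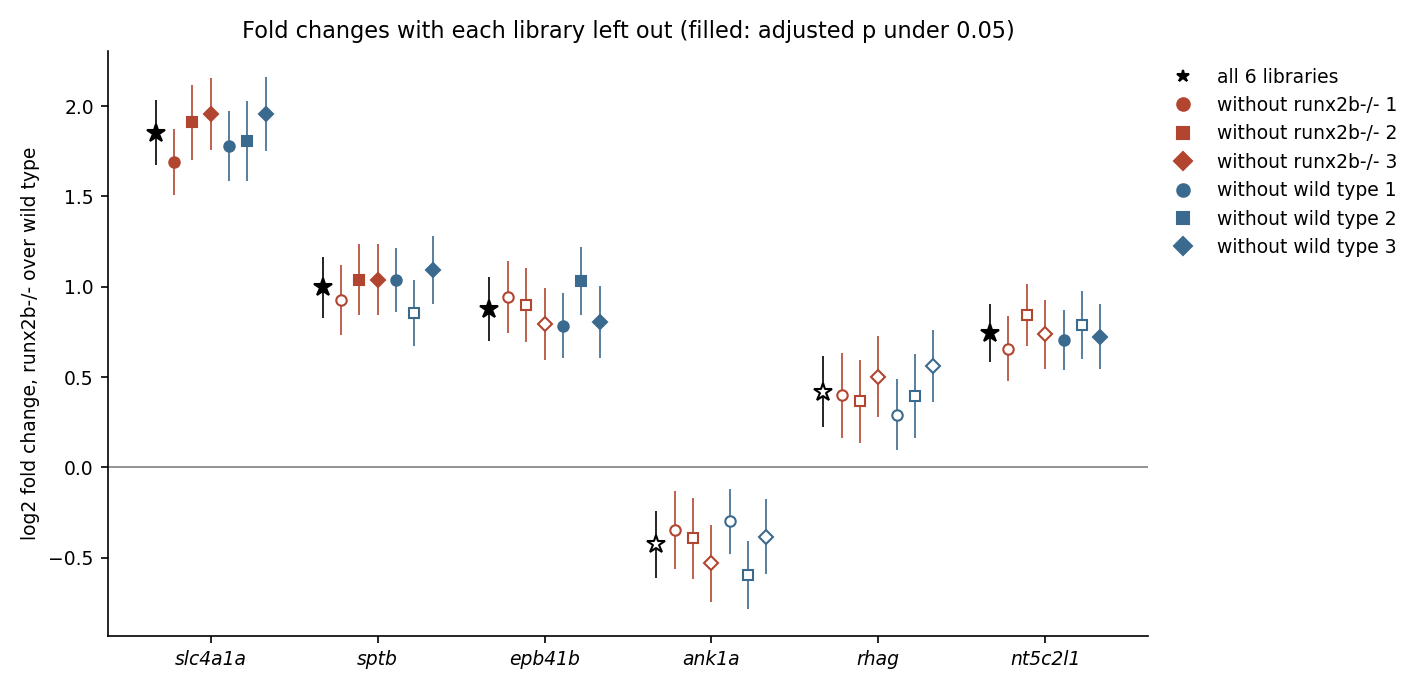
Log2 fold change of runx2b-/- over wild type (y axis; bars are the standard error) for each gene with all 6 libraries (star) and with 1 library left out (other symbols); filled points have an edgeR adjusted p under 0.05. slc4a1a stays filled throughout at 1.69 to 1.96. Both open points of sptb, at 0.93 and 0.86, lie below its filled ones, and the open points of epb41b lie among its filled ones. The open points of nt5c2l1, at 0.66, 0.74, 0.79 and 0.84, lie below, among and above its filled ones, at 0.71 to 0.74. ank1a stays below 0.

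Among the longest tested genes, those of at least 6273 bases, the median log2 fold change was 0.19, against -0.009 over all tested genes. Medians for other lengths are not reported here. sptb, with 7639 bases, is longer than most tested genes (percentile 94.7), and epb41b, with 5516 bases, stands at percentile 85.7. With a correction for gene length the log2 fold changes were 1.83 for slc4a1a, 0.85 for sptb (edgeR adjusted p = 0.0188), 0.79 for epb41b (0.03) and 0.77 for nt5c2l1 (0.0231), all still called. Other genes named in these results are also at least 6273 bases long, among them cdh5 (6833), piezo1 (8286), vwf (8835), golga4 (8350) and insra (6541). Their values with the correction are not reported here.

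The mean profile of the 6 genes over the 6 libraries was compared with that of 9673 other genes of at least 1 CPM. The measure was the root mean square difference of centred log2 CPM. Genes whose names have the form of a clone name were left out, so not every gene at that level was searched. The members themselves lay between 0.115 (nt5c2l1) and 0.617 (ank1a) from the mean profile. The nearest of the 9673 genes were alpk3b (0.062), insra (0.063), vwf (0.066), golga4 (0.067), cacna1sb (0.070), PDGFRB (0.077), mark3b (0.080) and rbsn (0.085). vwf, the endothelial von Willebrand factor gene, was the only one of the 8 on the lists used here, and none was on a red blood cell list. vwf had 1.99 to 2.40 CPM in runx2b-/- and 1.295 to 1.37 CPM in wild type, with a log2 fold change of 0.76 (SE 0.25, edgeR adjusted p = 0.121). It was the only one of the 8 not called. The others were called higher, with edgeR adjusted p from 0.0146 (alpk3b) to 0.044 (mark3b). The most abundant was cacna1sb, at 303 ± 12.3 CPM in runx2b-/- and 185 ± 18.7 CPM in wild type (SD, n = 3 each). Genes near a profile that separates the groups tend to be called, so these calls test nothing. The cell types behind the profile were not tested.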

How the data were processed

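Read counts per gene, as the authors deposited them, were whole numbers for 3 runx2b-/- and 3 wild type bulk libraries, neither normalized nor pooled. Libraries were made with a stranded kit for polyadenylated RNA, per the labels' protocols. For this table the aligner, counter and strand setting are not given in the sources used here. Cell Ranger and GRCz11 appear in the submitters' processing notes with no link to it, so positions are as the table gives them. The gene model length in bases, another column the authors deposited, was used for levels per kilobase. The 2 single-cell samples were not analysed here.

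Counts were analysed with edgeR 4.0.16 (filterByExpr, minimum count 10 and total 15; TMM; robust quasi-likelihood test, adjusted p under 0.05) in R 4.3.3, with DESeq2 1.42.0 and limma 3.58.1 as alternatives; the test was first checked on simulated counts. SE is the absolute log2 fold change over the square root of F. Libraries of a group differed beyond sampling noise (chi-square over degrees of freedom 25.5 to 95.3). The 6 genes and all lists were chosen with earlier results of these data known. Named were the 6 genes, up to 4 called or 2 abundant genes per list, and the 8 nearest profiles; relatives and markers named beyond that were chosen after their values were seen.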

Additional observations from a re-analysis of the deposited data

How the results depend on the processing

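The direction of all 6 genes was the same under RLE, upper-quartile and library size scaling, no filter, a filter of at least 50 counts in 3 libraries, DESeq2, limma voom, the length correction, the replicate block and each library left out. slc4a1a was called under all of them. sptb and epb41b were called in every fit listed that used all 6 libraries. nt5c2l1 was not called with library size only (log2 fold change 0.72) or with the replicate block (0.74). With each library left out in turn, log2 fold changes spanned 1.69 to 1.96 for slc4a1a, 0.856 to 1.09 for sptb, 0.785 to 1.03 for epb41b, -0.596 to -0.299 for ank1a, 0.292 to 0.562 for rhag and 0.658 to 0.844 for nt5c2l1. The number of the 6 called higher ran from 1 to 4, and the number of genes called in the whole table from 115 to 1225. All genes called were 476 in the reported fit, 1161 without a count filter and 304 with at least 50 counts in 3 libraries. Relative to globins, the difference ran from 1.34 to 1.70 for slc4a1a, 0.493 to 0.832 for sptb, 0.518 to 0.669 for epb41b, -0.962 to -0.569 for ank1a, 0.0123 to 0.293 for rhag and 0.30 to 0.506 for nt5c2l1 without 1 library at a time. For epb41b it was 0.397 against heme and iron genes and 0.822 against globins without hbba1, and for nt5c2l1 0.247 and 0.672. With the same 2 yardsticks it was 1.35 and 1.78 for slc4a1a, 0.518 and 0.942 for sptb, -0.902 and -0.478 for ank1a, and -0.064 and 0.361 for rhag, whose sign turned against heme and iron genes. The cause was not tested. Libraries with the same replicate number had correlations of their deviations of -0.055, 0.035 and 0.031, against -0.13 to 0.107 for unlike numbers. Such values cannot show whether libraries of the same number shared a preparation. With the replicate block 377 genes were called, 3 of the 6 among them. The sum of ank1a and ANK1 (1 of many) was added after seeing the data. rhag had the lowest counts of the 6, 93 to 147 per library.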
